A study of Mus musculus with 15 samples.

Results

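Peaks of N6-methyladenosine (m6A) that the submitters annotated to coding exons were followed through 3 lists of regions enriched by an m6A antibody over input RNA, 1 list for each condition of the mouse podocyte line MPC5. The members are all rows with that annotation: 4343 of 22498 peaks in the control list, 5159 of 24626 in the sh-METTL3-labelled list and 5426 of 27480 in the list of cells that also had added glucose (the glucose list). They make 14928 of the 74604 listed peaks and lie in 4550 genes. A peak was taken as found in another list when the 2 shared at least 1 bp and the strand.

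The series compared 3 conditions with 5 samples each, of which 2 were input RNA, 2 were RNA bound by the m6A antibody and 1 named neither kind. The control cells grew in standard medium and received no virus. The other two conditions received a virus that carries an shRNA directed at METTL3, and one of them was then kept for 72 h with added glucose at 25 µmol/L, a unit that is printed as labelled and is uncertain. All 3 conditions share the one immortalised line, poly(A)-selected RNA and no arm with glucose alone or with a virus lacking the shRNA, so virus and shRNA cannot be told apart.

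The mark is placed on adenosines of messenger RNA by a nuclear complex whose catalytic subunit is METTL3, removed by demethylases such as FTO, and read by proteins of the YTH family. It is known to gather in long internal exons and around the stop codon. In podocytes, the epithelial cells of the kidney filter, the mark can bear on the stability and translation of transcripts.

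Mettl3 RNA was 2.34 FPKM in the control library, and the 2 libraries of virus-treated cells had 2.42 and, with glucose, 2.49 FPKM, so the labels are used as names only. The RNA libraries held between 52807701 and 54282720 counts. Of 10 podocyte markers, 7 reached 1 FPKM in each library, with summed levels of 82.4, 164 and 162 FPKM. Most of each sum was Actn4, at 54.5, 87.5 and 104 FPKM. The podocyte transcription factor Wt1 stood at 0.654, 0.042 and 0.245 FPKM and the slit diaphragm protein gene Nphs1 at 3.35, 1.37 and 1.85 FPKM, while Kirrel stood at 8.61, 45.1 and 22.9 and Synpo at 1.19, 8.59 and 11.7 FPKM. Of 6 tubular markers, 4 reached 1 FPKM in each library, with summed levels of 58.9, 172 and 87.7 FPKM. Of 4 leukocyte markers 2, 3 and 3 did, while Ptprc among them stood at 0, 0.004 and 0 FPKM. Of 4 mesangial markers 1, 1 and 2 reached it, and of 4 endothelial markers 0, 0 and 1. The part that these levels have in any peak was not tested. The files give 1 peak list and 1 RNA column per condition, so no difference between conditions could be set against replicate spread. Intervals below are Wilson 95% intervals, which treat peaks as independent and cover counting error only. Coordinates are those of the deposited lists, counted from 1. They fit the mouse build GRCm38.

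Sequence can be shown for the members that hold an entry of the RefSeq tables for GRCm38.p6. The first set shows a member whose bounds coincide with a small RNA. A peak of 98 bp annotated to a coding exon of Chpf2, a chondroitin-polymerising factor, ran over chr5:24592114-24592211 on the plus strand in all 3 lists, base for base the hairpin of the microRNA Mir671. Its fold enrichment was 4.90 in the control list, 7.66 in the sh-METTL3-labelled list and 5.03 in the glucose list. The hairpin holds no GGAC, the 4-base core of the m6A motif, on either strand, and capitals in the mature forms mark the seed (bases 2 to 8).
Mir671 hairpin: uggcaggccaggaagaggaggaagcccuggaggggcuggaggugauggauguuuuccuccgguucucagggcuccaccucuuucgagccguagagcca
mmu-miR-671-5p: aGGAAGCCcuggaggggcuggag
mmu-miR-671-3p: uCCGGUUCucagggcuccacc

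The second set shows the 2 RefSeq windows of 300 bases around an annotated start that fell wholly inside a coding-exon peak of the same gene, of at most 2000 bp, in at least 2 lists. Ank2, a membrane-cytoskeleton adaptor, had its window at chr3:126943337-126943636 (minus strand) inside such a peak in all 3 lists. The fold enrichments were 8.61, 12.5 and 3.62 in the control, sh-METTL3 and glucose lists. The submitters' log10 adjusted p was -1.0, -2.18 and -1.62, so the control peak did not reach an adjusted p under 0.05. Arid1b, a subunit of the SWI/SNF chromatin remodeller, had its window at chr17:4994824-4995123 (plus strand) inside a peak of the control list at 41.6 and of the glucose list at 32.2, while the peak of the sh-METTL3-labelled list, at 25.0, began within the window. Capitals mark GGAC on the transcribed strand.
Ank2: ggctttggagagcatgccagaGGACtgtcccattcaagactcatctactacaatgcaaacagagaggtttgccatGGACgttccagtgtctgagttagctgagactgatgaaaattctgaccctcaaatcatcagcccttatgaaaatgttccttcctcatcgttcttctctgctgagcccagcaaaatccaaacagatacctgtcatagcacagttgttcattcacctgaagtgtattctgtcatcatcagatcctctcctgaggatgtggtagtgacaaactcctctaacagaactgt
Arid1b: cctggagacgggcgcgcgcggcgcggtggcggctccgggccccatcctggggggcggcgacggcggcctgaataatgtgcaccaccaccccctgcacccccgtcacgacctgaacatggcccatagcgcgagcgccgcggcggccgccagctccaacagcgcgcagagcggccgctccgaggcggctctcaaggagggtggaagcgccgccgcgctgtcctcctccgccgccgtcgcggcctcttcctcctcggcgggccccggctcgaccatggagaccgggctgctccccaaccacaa

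The Ank2 window holds 2 GGAC on the transcribed strand and 1 on the other, and the Arid1b window holds 0 and 1. Of all 32851 RefSeq start windows, 65.6% hold GGAC on the transcribed strand and 87.7% on either strand, so a match in 300 bases is common and marks no site. Of the 21 RefSeq hairpins that lie inside a coding-exon peak of any list, 2 hold it on the transcribed strand (9.52%), beside 24.5% of all 1005 hairpins. No limit was set on the extent of these peaks, which includes introns, and the one around Mir3099 spans 193839 bp. A hairpin inside such an extent need not lie in an enriched exon, so these shares do not describe peak sequence. Other members are described by position and value.

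Coding-exon peaks were the second largest kind in each list, after those of the 3'UTR. They made 19.3% of the control list (18.8 to 19.8%), 20.9% of the sh-METTL3-labelled list (20.4 to 21.5%) and 19.7% of the glucose list (19.3 to 20.2%), beside 50.1 to 52.6% for the 3'UTR and 14.7 to 17.4% for the 5'UTR. The deposited fold enrichment, pulled-down over input RNA, had a median of 5.08 in the control list, with quartiles of 2.51 and 9.26. In the sh-METTL3-labelled list the median was 4.68 (quartiles 2.60 and 8.26), and in the glucose list 3.77 (2.22 and 7.04). In each list the coding-exon median lay below those of the 3'UTR, at 5.86, 5.59 and 4.92, and of the 5'UTR, at 5.74, 5.42 and 5.03.

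Coding-exon peaks also spanned more of the genome than 3'UTR peaks, introns included. The median from first to last base was 721 bp in the control list, 661 bp in the sh-METTL3-labelled list and 899 bp in the glucose list, beside 480, 508 and 510 bp for the 3'UTR. Spans over 1000 bp took 42.4% (41.0 to 43.9%), 41.2% (39.8 to 42.5%) and 47.7% (46.4 to 49.1%) of the coding-exon peaks. At the submitters' adjusted p under 0.05 stood 86.3%, 87.4% and 81.8% of them. A fold enrichment of at least 4 with an adjusted p under 0.001 was reached by 44.0%, 44.7% and 33.4%.

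**Figure D1:**
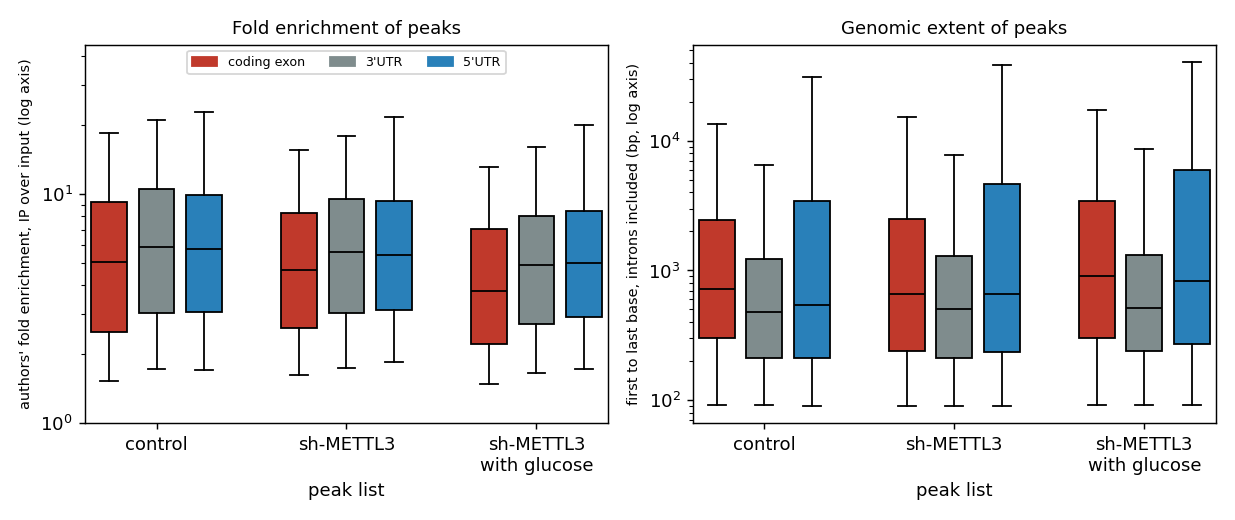
Left, the authors' fold enrichment of input-normalised pull-down (log axis) and right, the genomic extent in bp (log axis) for coding-exon, 3'UTR and 5'UTR peaks in each of the 3 lists; boxes span the quartiles with the median as a line, and whiskers reach the 5th and 95th percentiles over peaks. In each list the coding-exon box has the lowest median fold enrichment (5.08, 4.68 and 3.77), and a median extent (721, 661 and 899 bp) above that of the 3'UTR.

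Many fold enrichments took the same few values. The commonest among coding-exon peaks of the control list was 6.70, in 121 peaks, followed by 7.65 in 103 and 8.61 in 81. These are whole multiples of 0.9565, and 20.4% of the coding-exon peaks (884 of 4343) stood at 3 to 30 times that step to the 3 digits given, against 4.12% at the points midway between steps. In the sh-METTL3-labelled list the step was 1.0405 with 20.4% on it and in the glucose list 1.006 with 20.8% on it. Peaks on the step lay in genes with a median of 0.306, 0.621 and 1.29 FPKM, against 2.45, 4.35 and 5.07 FPKM for the other coding-exon peaks. An adjusted p under 0.05 was given to 70.5%, 72.6% and 71.9% of them and to 90.4%, 91.1% and 84.3% of the others. How the step came about was not tested.

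Some members of a list lay on top of each other. In the control list 112 coding-exon peaks (2.58%) overlapped another on the same strand, in the sh-METTL3-labelled list 144 (2.79%) and in the glucose list 148 (2.73%). Of these, 111, 140 and 144 had a partner with the same gene name. In Setd1a, which encodes a histone H3 lysine methyltransferase, the control list gave chr7:127784039-127786324 a fold enrichment of 92.7 and chr7:127785608-127786321, which lies inside it, one of 6.62. The 2 rows give different values for the same bases.

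Along the gene, coding-exon peaks were more numerous toward the 3' end in each list. With the genomic extent of the gene cut into 5 equal bins in the direction of transcription, introns included, 13.3% of the control peaks lay in the first bin (12.3 to 14.3%) and 30.5% in the last (29.2 to 31.9%). The first bin held 12.4% and 13.1% in the sh-METTL3-labelled list and the glucose list, and the last bin 31.4% and 28.6%. The share was higher in each bin than in the one before it in all 3 lists. By contrast 77.2 to 78.4% of 3'UTR peaks lay in the last bin and 72.1 to 74.0% of 5'UTR peaks in the first.

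**Figure D2:**
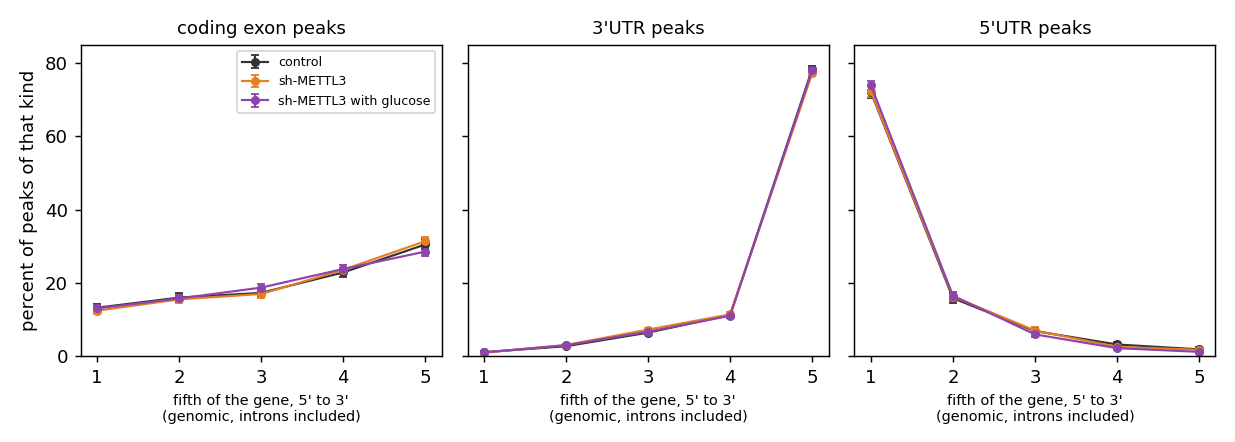
Percent of the peaks of each kind (y axis) by bin of the gene, 5 of equal length from its 5' to its 3' end (x axis, genomic positions with introns), for the 3 lists; bars are Wilson 95% intervals. The coding-exon share rises from 13.3% to 30.5% in the control list, and the 3 lists follow the same course.

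The genes that carried coding-exon peaks had modest RNA levels. Their median was 2.08 FPKM in the control library (quartiles 0.589 and 5.67), 3.62 in the sh-METTL3-labelled library (1.24 and 8.43) and 4.21 in the glucose library (1.64 and 9.26). Genes with 3'UTR peaks had medians of 3.30, 4.30 and 5.02 FPKM. Of the coding-exon peaks themselves, 35.4% of the control list, 23.0% of the sh-METTL3-labelled list and 14.9% of the glucose list lay in genes below 1 FPKM in the same condition. Across peaks of a list, fold enrichment was lower where the gene's FPKM was higher, with Spearman's rho of -0.34, -0.30 and -0.36 over 4268, 5115 and 5414 peaks that share 1 pull-down comparison and 1 RNA library. The RNA levels moved with the lists, and their part in the peak numbers was not tested. In bulk samples fewer cells of a type and less RNA per cell cannot be told apart.

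Most genes had 1 coding-exon peak: 1996 of 2875 genes in the control list, 2076 of 3145 in the sh-METTL3-labelled list and 2174 of 3338 in the glucose list. At least 3 were found in 313, 448 and 463 genes, whose median genomic length was 71417, 60209 and 67002 bp, against 28011, 26549 and 27962 bp for genes with 1. A 3'UTR peak lay in the same gene for 67.5%, 69.0% and 75.6% of the genes, and no other peak at all for 23.4%, 20.8% and 14.1%. Genes with a coding-exon peak in each of the 3 lists numbered 1900, while 393 had one in the control list alone, 477 in the sh-METTL3-labelled list alone and 772 in the glucose list alone.

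Genes with the most coding-exon peaks encode very large proteins. Dst, a spectraplakin that links intermediate filaments, actin and microtubules, had 17, 22 and 19 in the control, sh-METTL3 and glucose lists, with fold enrichments from 1.42 to 15.6, from 1.92 to 10.7 and from 1.5 to 10.2. Macf1, the related actin and microtubule cross-linker, had 11, 11 and 12. Fat4, a giant protocadherin, had 10, 6 and 15, at 0.809, 0.920 and 3.54 FPKM. Brca2, of homologous recombination, had 7, 14 and 9. Kmt2d and Kmt2c, histone H3 lysine 4 methyltransferases, had 7, 7 and 12 and 7, 9 and 9. Alms1, a centrosome and basal body protein, had 10, 6 and 9. The count was smaller in the sh-METTL3-labelled list than in the control list for Fat4 and Alms1 and larger or the same for the other 5 genes named here.

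Genes of nuclear and nucleolar proteins were among those with the highest fold enrichments in all 3 lists. Fbl encodes fibrillarin, the methyltransferase of ribosomal RNA in the nucleolus, and its peak at chr7:28172098-28174925 had 108 in the control list, 105 with the same bounds in the sh-METTL3-labelled list, and 219 in the glucose list. Hirip3, which encodes a partner of the histone chaperone HIRA, had 161, 95.4 and 74.2 around chr7:126863110-126864068. Both genes were expressed at 13.5 to 27.7 FPKM in the 3 libraries, above the median of genes with coding-exon peaks.

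Others among the 8 peaks with the highest lowest-of-3 value, a ranking chosen after values were seen, included chromatin proteins. Lzts3, a leucine zipper protein, had 53.3, 47.7 and 81.5. Chd3, a helicase of the NuRD chromatin complex, had 67.9, 56.2 and 42.3. Setd1a had 92.7, 67.3 and 42.1, and the zinc finger gene Zfp865 49.4, 60.1 and 35.2. Where more than 1 peak of a list overlapped the control peak, the highest was taken, which raises the lowest-of-3 value. In the glucose list the 42.3 of Chd3 lay at chr11:69369196-69369406, beside 13.0 at chr11:69362254-69364776. Lzts3 also had 16.6 there, Zfp865 13.1 and 5.03, and Setd1a 3.93. Fold enrichments rank peaks within a list and are set side by side here without a direction between lists.

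Among the 8 highest of single lists were also Scara5, a ferritin receptor, at 73.7 and Bahcc1, a chromatin reader, at 60.3 in the control list. The glucose list added Pcgf6, a polycomb protein, at 79.5, Jak3, a kinase of cytokine receptors, at 77.5, Lsp1, an actin-binding protein, at 76.5, and Rtf1, a transcription elongation factor, at 69.4. Each of these peaks overlapped a peak in both other lists. No coding-exon peak was listed for Mettl3, S1pr1, Smad2 or Smad3 in any list. Peaks of S1pr1, Smad2 and Smad3 were annotated to the 3'UTR and 5'UTR in each list, and those of Mettl3 to the 3'UTR and an intron in the glucose list alone.

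**Figure D3:**
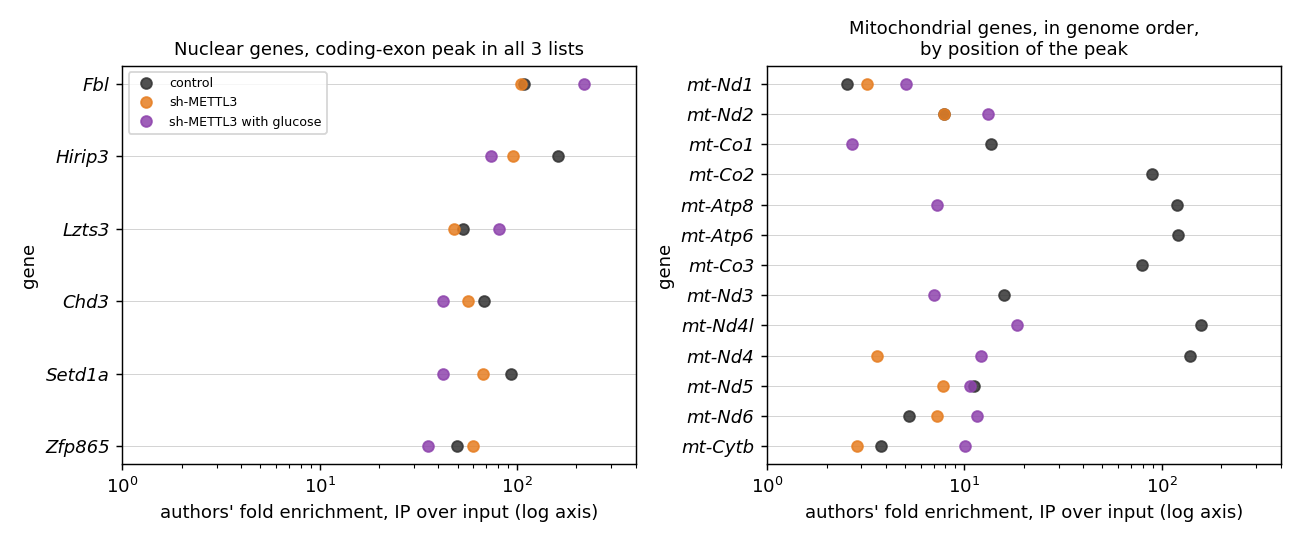
Authors' fold enrichment (log axis) of the highest coding-exon peak in each of the 3 lists, on the left for 6 nuclear genes among the 8 with the largest lowest-of-3 value and on the right for the 13 mitochondrial genes by the position of the peak; a missing point means that no coding-exon peak is listed. Nuclear points all lie above 35, and the mitochondrial genes from mt-Co2 to mt-Nd4 include control values up to 158.

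Most coding-exon peaks of a list met a peak in another. Of the control peaks, 86.0% (84.9 to 87.0%) overlapped a peak of the sh-METTL3-labelled list and 83.4% (82.2 to 84.4%) a peak of the glucose list, against 84.1% and 82.9% for control peaks of every kind. Of the coding-exon peaks of the sh-METTL3-labelled list, 79.8% (78.7 to 80.9%) met the control list and 83.5% (82.5 to 84.5%) the glucose list, against 79.1% and 83.0% for every kind. Of the glucose peaks, 69.7% (68.4 to 70.9%) met the control list and 74.8% (73.6 to 75.9%) the sh-METTL3-labelled list, against 68.3% and 72.6%. The shares were close to those of all peaks, and 3'UTR peaks were found somewhat more often, at 86.9% and 86.4% from the control list.

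Coding-exon peaks in both other lists had higher median fold enrichments and extents than those in none. They made 76.4% of the control list, 71.4% of the sh-METTL3-labelled list and 64.4% of the glucose list. Their median fold enrichments were 5.38, 5.46 and 5.03, against 4.31, 3.08 and 2.01 for peaks in no other list. Their median extents were 956.5, 786 and 989 bp against 262, 288 and 597 bp. An adjusted p under 0.05 stood beside 93.9%, 96.3% and 89.8% of the first and 45.5%, 45.7% and 61.9% of the second. In no other list were 308 control peaks (7.09%), 416 peaks of the sh-METTL3-labelled list (8.06%) and 1081 glucose peaks (19.9%). The genes of these peaks had a median of 0.499 FPKM for the control, 1.47 for sh-METTL3 and 4.90 for glucose, the last beside the 3.8 FPKM of the shared glucose peaks. Of 3'UTR peaks 6.71%, 7.41% and 17.1% were in no other list, and of 5'UTR peaks 7.62%, 10.2% and 27.1%. In these kinds, too, peaks in both other lists had higher median fold enrichments and extents than those in none. An overlap of 1 bp is also met more readily by a longer peak.

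**Figure D4:**
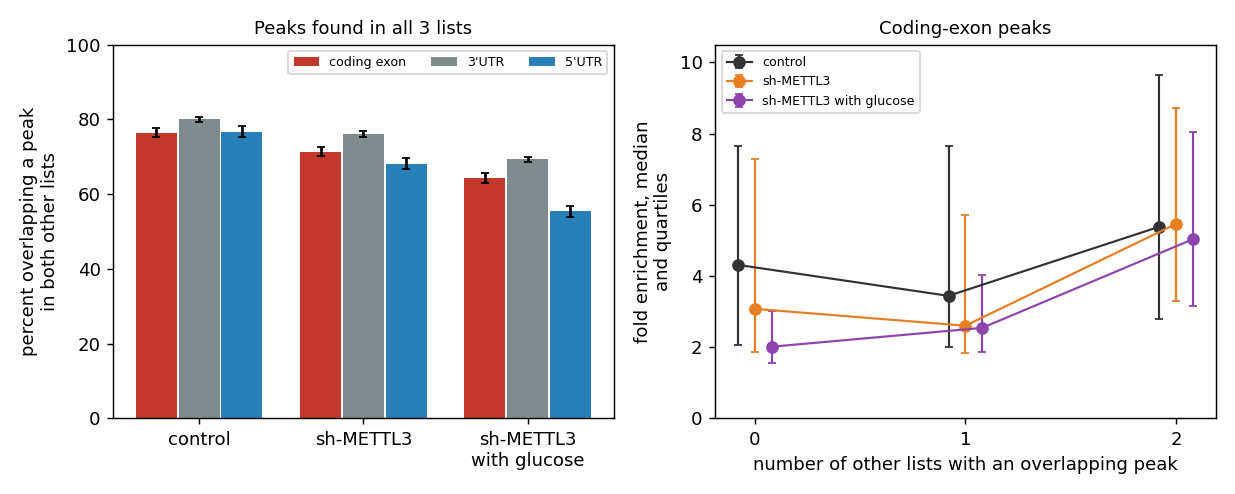
Left, percent of the peaks of each kind that overlap a peak in both other lists, with Wilson 95% intervals, and right, median fold enrichment with quartiles of coding-exon peaks by the number of other lists in which they were found. The coding-exon share is 76.4% for the control list and 64.4% for the glucose list, and medians are highest, at 5.03 to 5.46, for peaks of all 3 lists.

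The annotation was shared less often than the peak itself. Among control peaks, 72.5% (71.2 to 73.8%) met a coding-exon peak of the sh-METTL3-labelled list, and a further 320 met a 3'UTR peak alone and 235 a 5'UTR peak alone. In the glucose list 322 and 303 did so. A coding-exon partner in both other lists was found for 2536 control peaks (58.4%) in 1766 genes. The counts of coding-exon peaks per list include peaks whose annotation differs between lists.

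The comparison of the sh-METTL3-labelled list with the control sets virus-treated cells beside untreated ones. With 1 list each and no virus lacking the shRNA, it cannot assign a difference in the mark to the shRNA. In the authors' deposited table of this comparison, which holds peaks at p under 0.05, 833 coding-exon peaks were listed and 543 had an adjusted p under 0.05. Of these 450 were higher in the sh-METTL3-labelled cells and 93 lower, so 82.9% were higher (79.5 to 85.8%). The share higher in the authors' deposited table was 72.1% for called 3'UTR peaks (69.4 to 74.6%) and 80.6% for called 5'UTR peaks (75.6 to 84.9%). Of all 3518 peaks in the authors' deposited table, 57.0% were called, 43.4% as higher and 13.6% as lower, and among coding-exon peaks 65.2% were called (61.9 to 68.3%). The median log2 fold change in the authors' deposited table was 0.67 for the higher and -0.62 for the lower coding-exon peaks, and 88 exceeded 1 in size. Of the 450 higher peaks, 333 overlapped a peak in both lists and 109 in the sh-METTL3-labelled list alone.

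Named by size, the higher peaks lay in genes of diverse roles. The authors' deposited table gave Rsbn1l a log2 fold change of 2.56 (adjusted p 0.0355) and Naa15, the auxiliary subunit of the NatA N-terminal acetyltransferase, 1.79 (adjusted p 2.57e-09) at chr3:51461051-51461321. The Naa15 peak had a fold enrichment of 1.73 in the control list, 7.63 in the sh-METTL3-labelled list and 4.07 in the glucose list. The authors' deposited table gave 1.71 for Kif21b, a kinesin, 1.64 for Chd1l, a chromatin remodeller of DNA repair, and 1.64 for Vps36 of the ESCRT-II complex. It was 1.57 in the authors' deposited table for Pnkd, 1.51 for Sdhb, the iron-sulphur subunit of succinate dehydrogenase, and 1.5 for Hells, a helicase of DNA methylation. Kif21b, Chd1l, Vps36, Sdhb and Hells had no overlapping peak in the control list and a coding-exon peak of 2.03 to 3.70 in both others.

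The lower peaks, aside from those of mitochondrial and near-copy genes, were led by a site in Alms1 at chr6:85609759-85609999, with a log2 fold change of -3.86 (adjusted p 0.01) in the authors' deposited table. Its fold enrichment was 27.7 in the control list and 7.71 in the glucose list, with no peak in the sh-METTL3-labelled list, and Alms1 RNA stood at 0.353, 1.23 and 0.898 FPKM. The authors' deposited table gave -2.41 for Rapgef6, an exchange factor of Rap, and -2.23 for Gon4l, a nuclear regulator of transcription. For Gon4l the control list gave 20.1 at chr3:88835231-88837313 and the glucose list 15.6 at chr3:88835231-88837343. The peak of the sh-METTL3-labelled list, at 9.36, ran over chr3:88837104-88846390 and overlapped the called site only at its end. The authors' deposited table further gave -2.13 for Pcdhga9, a clustered protocadherin, -1.24 for Ipp, -1.23 for Mid1, a microtubule-bound ubiquitin ligase, -1.19 for Gpatch3 and -1.15 for a second site in Alms1.

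Set against the control, the glucose condition showed more calls and a more even split. The authors' deposited table listed 1724 coding-exon peaks, with 1396 at an adjusted p under 0.05, of which 810 were higher and 586 lower, 58.0% higher (55.4 to 60.6%). Of the 8208 listed in the authors' deposited table, 79.4% were called, 44.1% as higher and 35.3% as lower, close to the 81.0% called among coding-exon peaks. The share higher lay between that of 3'UTR peaks, 49.6% (48.0 to 51.2%), and that of 5'UTR peaks, 72.4% (69.5 to 75.1%), in the authors' deposited table, and the 3 intervals do not overlap. This comparison shares its control samples with the one before, so the values are given beside each other without a count of agreement.

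Rrm2, the small subunit of ribonucleotide reductase, had the smallest adjusted p among the named higher peaks, 2e-25, with a log2 fold change of 2.87 at chr12:24709183-24709362 in the authors' deposited table. A peak was listed there in the glucose list alone, at 4.98, although the gene's RNA was high in each library, at 39.3, 60.0 and 54.4 FPKM. Sesn3, a stress-induced sestrin, had 3.00 in the authors' deposited table, again with a peak in the glucose list alone, at 3.46. Lonrf3 had 4.33, Osmr, the oncostatin M receptor, 2.35, Swt1 2.29, Plekha7, an adherens junction protein, 2.20, Hoga1 2.09 and Sike1 2.06 in the authors' deposited table. The 8 had no overlapping peak in the control list.

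Outside predicted, mitochondrial and near-copy genes, one row of which reached -7.15 in the authors' deposited table, the lowest was Polr1d, a subunit shared by RNA polymerases I and III, at -5.36 in the authors' deposited table, where the control list held a peak annotated to the 3'UTR at 57.9 and the other lists none. Dop1b had -3.81, Mid1 -3.28, Apc2 -3.15, Alpk1, an innate immune kinase, -2.02, Zfp959 -1.95, the Notch ligand gene Dll1 -1.79 and Zfp472 -1.77 in the authors' deposited table. Dop1b was at 11.6 in the control list and 6.99 in the sh-METTL3-labelled list and had no peak in the glucose list. Apc2, Alpk1, Zfp959, Dll1 and Zfp472 had RNA levels of 0.061 to 0.844 FPKM in the control library.

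With glucose against sh-METTL3 alone, the only pair that differs by the added glucose, fewer coding-exon peaks were higher than lower. The authors' deposited table listed 875 and called 565, of which 230 were higher with glucose and 335 lower, 40.7% higher (36.7 to 44.8%). For 3'UTR peaks the share was 40.1% (38.0 to 42.2%), and for 5'UTR peaks 69.7% (65.4 to 73.7%) in the authors' deposited table. Of the 4968 peaks of every kind in the authors' deposited table, 67.1% were called, 30.6% as higher and 36.5% as lower.

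**Figure D5:**
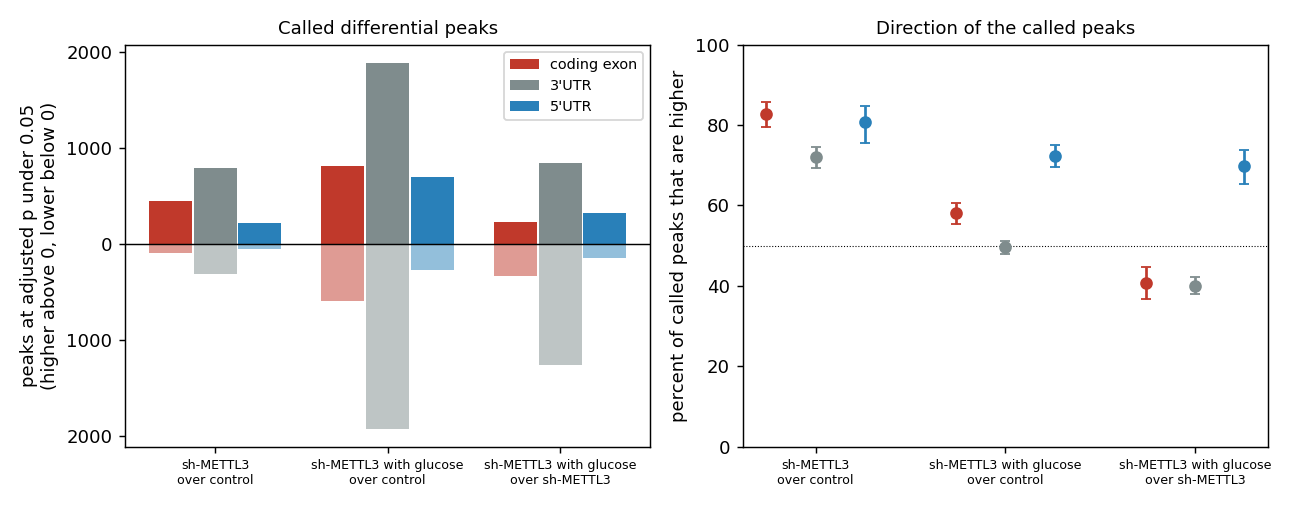
Left, number of peaks at the authors' adjusted p under 0.05 in each deposited comparison, higher above 0 and lower below it, by kind of peak; right, percent of those that are higher, with Wilson 95% intervals and a dotted line at equal numbers. Coding-exon peaks are 82.9%, 58.0% and 40.7% higher in the 3 comparisons, while 5'UTR peaks stay at 69.7% or above.

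Leaving out mitochondrial and near-copy genes, Gon4l and Rrm2 were among the highest of that pair, at 3.24 (adjusted p 0.000209) and 2.34 (adjusted p 2.51e-56) in the authors' deposited table. Pcnx3 had 2.81, Setd5, a chromatin protein with a SET domain, 2.42, Mapk9, the stress kinase JNK2, 2.01, Cspp1 1.98, Sesn3 1.94 and Lmbrd2 1.84 in the authors' deposited table. Setd5, at chr6:113113671-113115064, had a coding-exon peak in the glucose list alone, at 5.21, and 5.82, 9.08 and 7.54 FPKM of RNA. The lowest were Mid1 at -2.12, where neither list of the pair held a peak, Pam16, of mitochondrial protein import, at -1.98, Fmnl3, a formin of actin assembly, at -1.74, Safb, a nuclear matrix protein, at -1.67, Sh3rf1 at -1.59, Maf at -1.59, Zfp526 at -1.54 and Kbtbd4 at -1.53 in the authors' deposited table. Fmnl3 and Safb had a coding-exon peak in the sh-METTL3-labelled list alone, at 5.82 and 3.12.

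Within a gene, called peaks mostly moved one way. Without glucose against control, 60 of 64 genes with at least 2 called coding-exon peaks had all of them in 1 direction in the authors' deposited table. For glucose against control and against sh-METTL3, 159 of 194 and 38 of 46 genes did in the authors' deposited tables. Where a gene had called peaks in coding exons and in the 3'UTR, each kind in 1 direction, the kinds shared it in 56 of 65 genes, 296 of 385 and 90 of 121 in the 3 authors' deposited tables. In the rest the kinds went opposite ways, with the exon higher and the 3'UTR lower in 5, 53 and 19 genes and the reverse in 4, 36 and 12. Some called rows of 1 gene cover the same bases, such as chr7:127787572-127788272 and chr7:127787569-127788268 in Setd1a without glucose against control. Such rows can share a direction for that reason alone. Peaks of 1 gene also share its transcript and its RNA level, so they are not independent. Of all called coding-exon peaks 82.9%, 58.0% and 40.7% were higher in the 3 authors' deposited tables, and of called 3'UTR peaks 72.1%, 49.6% and 40.1%. Peaks of unrelated genes would also often share a direction where 1 direction prevails. Agreement beyond that was not tested.

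RNA of the same genes was compared on the log2(FPKM + 1) scale for the 11591 genes that average 1 FPKM or more, relative to the median gene, which itself stood at 0.10, 0.16 and 0.06 in the 3 pairs. Genes whose called coding-exon peaks were all lower in the sh-METTL3-labelled cells had a median RNA ratio of 0.56 (76 genes), and genes whose peaks were all higher 0.18 (374 genes). For glucose against control the medians were 0.46 (454 genes) and -0.05 (611 genes), and for glucose against sh-METTL3 0.02 (287 genes) and -0.13 (206 genes). Without the filter on low values the -0.05 became 0.076. All genes with a coding-exon peak in either list of the pair had medians of 0.30, 0.21 and -0.07. At least 2-fold higher in RNA were 26.3% of the 76 and 22.7% of the 454, beside 19.9% and 13.0% of genes with a coding-exon peak in either list of the pair and 11.4% and 8.25% of all genes. At least 2-fold lower were 2.63% of the 76 and 0.441% of the 454, beside 2.76% and 1.29% of genes with such a peak and 8.01% and 3.68% of all genes. In the last pair 4.18% of the 287 genes were at least 2-fold higher and 2.79% lower, beside 2.81% and 1.85% of all genes. Peak values are ratios to input, so RNA level and peak value are not separate measurements, and their dependence was not tested.

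Among the gene lists, chromatin regulators carried coding-exon peaks most widely. Of 34 with a mean of at least 1 FPKM, 30, 31 and 30 had one in the control, sh-METTL3 and glucose lists, and 30 in all 3 (88.2%), beside 13.7% of all 11581 such gene names. In the single lists 18.8%, 20.8% and 23.9% of all these names had one. The median genomic length of the chromatin regulators was 83749 bp against 17810 bp for all tested genes, and the part of length was not tested. In the authors' deposited table of glucose against control, 24 called peaks were higher and 15 lower, in 23 genes, beside 810 of 1396 higher among all called coding-exon peaks, a share close to theirs. Kmt2a, Chd8 and Setd1a had called peaks in both directions, such as -0.56 and 0.75 in Chd8, in the authors' deposited table. The higher included Chd3 up to 1.17, Chd1, a nucleosome remodeller, up to 1.09, Dnmt1, the maintenance DNA methyltransferase, up to 0.98, and Smarca4, the ATPase of SWI/SNF, at 0.89 in the authors' deposited table. The lower included Setd1b at -1.22, Setd2 down to -0.93 and 4 peaks of Kmt2d from -0.90 to -0.70 in the authors' deposited table. Without glucose, 19 called peaks were higher than control and 1 lower in the authors' deposited table, the latter in Nsd1 at -0.46. Of all called coding-exon peaks in the authors' deposited table of that pair, 82.9% were higher.

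Zinc finger genes named Zfp had called peaks mostly lower with glucose. In the authors' deposited table of glucose against control, 51 of 58 called coding-exon peaks, in 49 genes, were lower, with a median log2 fold change of -0.87, beside 586 of 1396 for all coding-exon peaks and a median of 0.46. Zfp292 had -1.32 (adjusted p 2.51e-09) and Zfp646 -1.27 (adjusted p 5.01e-17), while 3 peaks of Zfp91 stood at 0.73 to 0.99 in the authors' deposited table. In the authors' deposited tables of the other pairs, 20 of 22 were lower with glucose than without it, beside 335 of 565 for all coding-exon peaks, and 4 of 8 were lower than control without it, beside 93 of 543. Of 37 of these genes with lower peaks alone and a tested RNA value, 27 had an RNA ratio to control above the median gene, with a median of 0.51, beside 355 of 454 and a median of 0.46 for all genes with lower peaks alone. Coding-exon peaks lay in 47.2%, 50.3% and 57.5% of the 193 Zfp genes above 1 FPKM, beside 18.8%, 20.8% and 23.9% of all tested genes.

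Part of the m6A machinery carried coding-exon peaks. Of 20 members above 1 FPKM, 7, 8 and 9 had one in the 3 lists, beside 18.8%, 20.8% and 23.9% of all tested genes. Zc3h13, a scaffold of the writer complex, had 15.9, 28.1 and 23.6, and Ythdc1, the nuclear reader, 26.0, 8.32 and 14.0 as its highest fold enrichments. The 8.32 of Ythdc1 lay at another site than its other values. Rbm15, an adaptor that brings the writer to its targets, had no coding-exon peak in the control list and 18.4 and 9.35 in the others. In the authors' deposited tables the Wtap peak was lower than control both without and with glucose, at -0.64 (adjusted p 4.37e-07) and -0.67 (adjusted p 2.82e-09), and the Hnrnpc peak was higher, at 0.70 (adjusted p 3.16e-31) and 0.80 (adjusted p 3.16e-49). Wtap is a regulatory subunit of the writer and Hnrnpc a reader of structures that the mark exposes. With glucose, 3 peaks of Ythdc1 were higher than control, from 0.55 to 0.79, and Rbm15 was at -0.86 in the authors' deposited table. Zc3h13 at -0.46, Rbm15b, a paralog of Rbm15, at -0.42 and Fto, a demethylase, at -0.34 were also lower. That gives 5 peaks higher and 5 lower for the list in that authors' deposited table. Of all called coding-exon peaks in it, 58.0% were higher.

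Lists on signalling and stress lay on both sides of the 18.8%, 20.8% and 23.9% of all tested genes with a coding-exon peak. Of 14 podocyte genes above 1 FPKM, 4, 4 and 3 had coding-exon peaks, among them Nes, the intermediate filament nestin, at 10.8, 12.5 and 14.8. Of 28 TGF-beta and Smad genes 8, 7 and 5 did, with Bmpr2, a BMP receptor, at 9.59 and 8.77 in the control list and the sh-METTL3-labelled list, and Tgfb2, a ligand, at 14.4, 6.24 and 4.78. Of 18 sphingosine 1-phosphate genes 2, 1 and 3 did, with Degs1, a ceramide-forming desaturase, at 9.57, 13.0 and 10.8. Among ferroptosis suppressors it was 3, 3 and 1 of 22, led by Nfe2l2, the antioxidant factor NRF2, at 2.72, 3.15 and 7.37, and among drivers 1, 1 and 2 of 17, with Bach1, a repressor of antioxidant genes, at 11.8, 6.65 and 7.65. Interferon-stimulated genes had 8, 9 and 14 of 29, led by Parp14 at 11.7, 10.6 and 12, and inflammatory genes 5, 4 and 4 of 16, led by Tnfaip3, a brake on NF-kB, at 12.3, 10.9 and 7.70. Each value is the gene's highest coding-exon peak in that list, which need not be 1 site. The 7.37 of Nfe2l2 lay at chr2:75675961-75677097, and its other values around chr2:75679265-75691156. The 11.7 of Parp14 lay at chr16:35836143-35841430, and its other values around chr16:35853716-35857757.

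Some members of these lists were called. With glucose against control, the authors' deposited table called 4 peaks of interferon-stimulated genes higher and 2 lower, among them Trim25, a ubiquitin ligase of antiviral signalling, at 0.88 and Oas3, an antiviral synthetase, at -0.49. For inflammatory genes the authors' deposited table called 1 higher and 3 lower, while of all its called coding-exon peaks 58.0% were higher. Nfkbiz, an atypical IkB protein, had -1.34 (adjusted p 1.26e-46) and Tnfaip3 -0.76 (adjusted p 1e-13), and the adhesion molecule gene Vcam1 had 1.04 (adjusted p 0.0468), in the authors' deposited table of the same pair. Tgfbr2, a TGF-beta receptor, had -0.37 without glucose and -0.53 with it against control in the authors' deposited tables, and Ski, a repressor of Smad signalling, had 0.27 without glucose. The glutathione enzyme gene Gclc had 0.62 and Nfe2l2 0.52 with glucose against control, and Hspa5, an endoplasmic reticulum chaperone, had -0.36 without it, in the authors' deposited tables. No coding-exon peak of a ferroptosis driver was called in any of the 3 authors' deposited tables. Only 1, 1 and 2 of the 17 drivers above 1 FPKM had such a peak in the control, sh-METTL3 and glucose lists. Calls of coding-exon peaks fell in 462, 1143 and 511 genes in all, so the absence among so few carries little weight.

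Structural lists were unevenly marked. Actin and focal adhesion genes had coding-exon peaks in 10, 13 and 15 of 29, with 42, 57 and 64 peaks, which is 34.5%, 44.8% and 51.7% beside 18.8%, 20.8% and 23.9% of all tested genes. The median genomic length of these genes was 82520 bp. The 9 peaks called without glucose against control, in 4 genes, were higher in the authors' deposited table, where 82.9% of all called coding-exon peaks were. They included 3 in Myh9 and 3 in Myh10, nonmuscle myosin heavy chains, at 0.53 to 0.71, in the authors' deposited table. With glucose 11 were higher and 3 lower than control, the highest in Dst at 1.5, in the authors' deposited table, where 58.0% of all called coding-exon peaks were higher. Tns3, a tensin of focal adhesions, had 14.4, 16.0 and 8.92. Matrix genes had them in 3, 4 and 5 of 18, with Tnc, the glycoprotein tenascin C, at 11.8, 10.7 and 13.1. Immediate early genes had 6, 5 and 5 of 24, among them Nr4a1, an orphan nuclear receptor, at 12.9, 8.38 and 5.74. Lipid synthesis genes had 0, 2 and 2 of 24 and ribosomal protein genes 2, 1 and 5 of 29, with Rps24 at 1.70, 2.31 and 2.24. Ribosomal protein genes have processed pseudogenes, so their values are uncertain.

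Mitochondrial genes gave the largest falls in the sh-METTL3 comparison with control, and part of them has a near-identical nuclear copy, so their values are uncertain. The control list held 16 coding-exon peaks on the mitochondrial chromosome, the sh-METTL3-labelled list 7 and the glucose list 12, with highest fold enrichments of 158, 7.90 and 18.4. By position, the control values were 89.5 in mt-Co2, 120 in mt-Atp8, 121 in mt-Atp6, 79.4 in mt-Co3, 158 in mt-Nd4l and 139 in mt-Nd4. In the sh-METTL3-labelled list the first 5 of these had no peak and mt-Nd4 had 3.62. In the glucose list mt-Atp8 had 7.22, mt-Nd4l 18.4 and mt-Nd4 12.1, and the other 3 had no peak. For peaks in the first 5, the authors' deposited table of sh-METTL3 against control gave log2 fold changes of -7.43 to -9.58. The authors' deposited table of glucose against control gave -3.29 to -4.03 for the same 5. For mt-Nd4 these authors' deposited tables gave only -0.53 without glucose and 0.63 with it. The latter is higher than control, unlike its fold enrichments of 139 and 12.1.

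Each of those genes lies in the stretch that is copied on chromosome 1, mt-Nd4 only in part. The copies of mt-Co2, mt-Atp6, mt-Co3 and mt-Nd4l had counts near the mitochondrial ones. An example is Gm10925, at 107520 beside 106099 for mt-Atp6 in the control library and 118391 beside 118445 in the sh-METTL3-labelled library. The shorter copy of mt-Nd4, Gm28439, was further off. It had 12859 beside 39555 in the control library and 35839 beside 89036 in the sh-METTL3-labelled library. The genes outside the stretch had peaks in all 3 lists: mt-Nd1 at 2.55, 3.22 and 5.03, mt-Nd2 at 7.87, 7.90 and 13.1, mt-Nd5 at 11.2, 7.80 and 10.7, mt-Nd6 at 5.26, 7.28 and 11.6 and mt-Cytb at 3.77, 2.87 and 10.1. The gene names in the list are also displaced, since 3 of the 16 control peaks lie in a gene next to the one they are named for, such as the peak named mt-Atp6 at 8607 to 9245, which is mt-Co3. Whether reads shared with the copy set these values was not tested.

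Other genes with near-identical copies stood at the extremes as well. Eno1b, a copy of the glycolytic enolase gene Eno1, had 8.44 for sh-METTL3 against control and -6.12 for glucose against sh-METTL3 in the authors' deposited tables, although none of the 3 lists held a peak there. Rsph3a, a copy of Rsph3b, had 5.95 and Mfap1b, a copy of Mfap1a, -3.31 for glucose against control in the authors' deposited table. Rpl7a, a ribosomal protein gene, had 2.18 for glucose against control and 3.64 against sh-METTL3 in the authors' deposited tables. They are reported as uncertain because the counting could divide reads between copies.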

How the data were processed

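Poly(A) RNA of MPC5 cells was fragmented and part of it pulled down with an m6A antibody, per the labels' protocols. Per the submitters' processing notes the tools were HOMER 4.10, edgeR 4.1, StringTie 2.1.2, HISAT2 2.0.4 and fastp 0.19.4, with no role stated. The notes also name the build GRCh38, although the cells are mouse and the coordinates match GRCm38. Which tool called the peaks was not given in the sources.

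The deposited peak lists, 1 per condition, hold the authors' fold enrichment as a ratio and log10 p and adjusted p as a score. The deposited differential tables hold, for each peak, a log2 fold change, p-value and adjusted p-value from the authors, and the glucose against sh-METTL3 table was deposited the other way round, so its signs were turned. Among called coding-exon peaks present in both lists, 96.8%, 92.0% and 92.1% had the sign of the ratio of fold enrichments. The deposited RNA table holds the authors' FPKM and counts, per the file headers, in 1 column of each per condition.

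From these, peaks were matched by same-strand overlap of at least 1 bp from first to last base with Python 3.11.15 and pandas 2.3.3, and shares received Wilson 95% intervals. RNA ratios used log2 of (FPKM + 1) over genes averaging 1 FPKM or more, which understates changes of low genes. Overlap code was checked against a brute-force search, and RNA calls on simulated data. Without replicates no test was made here.

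Named peaks follow a rule: those of Mettl3, S1pr1, Smad2 and Smad3, the 8 highest fold enrichments per list at adjusted p under 0.05 in genes averaging 1 FPKM or more, the 8 highest and lowest called peaks per differential table, the 8 genes with most peaks and up to 3 peaks per gene list, leaving out predicted genes and those that have near-identical copies, a set fixed after values were seen and named apart. The peaks with the highest lowest-of-3 fold enrichment and further list members were also chosen after values were seen. Some items that the rule names are not reported here. Members and lists were chosen with earlier results of these data known. Motif content, place along the coding sequence and exon blocks were planned and not run, since no genome or exon annotation was used here.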

Additional observations from a re-analysis of the deposited data

How the results depend on the processing

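At an adjusted p under 0.001 with a fold enrichment no lower than 4, coding-exon peaks numbered 1910, 2306 and 1814 in the control, sh-METTL3 and glucose lists, their shares of the list were 18.1%, 20.3% and 17.0%, and their median fold enrichments were 8.83, 7.67 and 7.04, where the medians are higher by construction. At an adjusted p under 0.05 the medians were 5.29, 4.92 and 4.07 and the share of the list labelled sh-METTL3 was 21.7%. The shares found in another list are given in the order control in sh-METTL3, control in glucose, sh-METTL3 in control, sh-METTL3 in glucose, glucose in control and glucose in sh-METTL3. They were 82.4, 80.2, 76.0, 79.7, 66.7 and 70.9% with 50% of the shorter peak shared, 49.4, 47.3, 40.8, 42.7, 36.9 and 39.4% with 50% of both peaks, and 72.5, 68.3, 64.9, 66.2, 56.6 and 61.3% with a coding-exon partner. At an adjusted p under 0.05 in both lists the shares became 88.0% for control in sh-METTL3, 82.8% for sh-METTL3 in control, and 72.4% and 77.4% for glucose in control and in sh-METTL3. At the stricter threshold in both lists all but the first moved, to 75.3, 85.6, 77.8, 82.1 and 86.5%. In 2 alternatives chosen after seeing the data, peaks of at most 1000 bp gave 81.2% and 76.7% for the control list, 78.9% for sh-METTL3 in glucose and 72.1% for glucose in sh-METTL3, and genes with a mean of at least 1 FPKM gave 88.7, 90.1, 81.7 and 89.4% for the first 4. The cause was not tested.

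In the authors' deposited tables at p under 0.05, the lower peaks of sh-METTL3 against control numbered 188, and 56 with an absolute log2 fold change of at least 0.5 added to the adjusted p, while glucose against sh-METTL3 had 351 higher and 524 lower at p under 0.05. The median RNA ratio of genes with lower peaks alone was 0.29 with a pseudocount of 5 for sh-METTL3 against control. For glucose against control it was 0.65 with 0.1, 0.21 with 5, 0.53 with no filter and 0.68 from counts scaled by median of ratios. For glucose against sh-METTL3 it was 0.078 with no filter, and genes with higher peaks alone had -0.07. The 1 reversal was genes with higher peaks alone for glucose against control, at 0.076 with no filter against -0.05. A further alternative chosen after seeing the data left out mitochondrial and near-copy genes from the differential peaks. Another 48 values under alternatives kept their direction and stayed within 1.5 times the count or inside the interval. No paired analysis was possible because the files hold 1 list and 1 RNA column per condition, and for the same reason no replicate was left out. Low RNA limits the depth behind peaks, as 14.9 to 35.4% of coding-exon peaks lie in genes below 1 FPKM.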
